A study of Homo sapiens with 2 samples.

Results

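The Frizzled receptors are the 10 human genes FZD1 to FZD10, and their RNA was followed in RWPE-1, a line of noncancerous epithelial cells from the human prostate, given either pre-miR-424 or Negative control #1 by transfection, each at 30 nM. The members were the 10 genes of the family, each matched to array probes through the RefSeq accession of the probe. All 10 genes were found, each with 1 probe, among 42405 probes on the array, and all 10 were measured among 13812 measured genes. The family was chosen by the measured log2 ratio of FZD5, which rose with pre-miR-424 on both arrays, so that ratio is given as a description. Pre-miR-424 is a synthetic precursor from which the cell makes the microRNA miR-424, and the negative control is a precursor used as its counterpart. Both groups were the same cell line in keratinocyte serum-free medium with supplements, and the time after transfection was not given in the sources used here. The cells were compared on 2 two-colour Agilent arrays. On the array with normal labelling the RNA from pre-miR-424 was in the dye Cy5 and control RNA in Cy3, and the dyes were exchanged on the dye swap. The labels call these arrays technical replicates, so they counted as 1 replicate and no p-value could be given. The spread between the arrays covers labelling and hybridisation, not the difference between cultures.

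Frizzled proteins are receptors in the cell membrane that bind secreted Wnt ligands through a cysteine-rich domain outside the cell. With the co-receptors LRP5 or LRP6 they pass the signal through Dishevelled proteins, which stops the destruction of beta-catenin and lets it act on genes with TCF and LEF factors. With other partners they steer cell polarity and movement. In epithelia, Wnt signals take part in growth, stem cell upkeep and differentiation, and in the prostate they also act in the budding of the gland.

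MicroRNAs pair with messenger RNAs mainly through their seed, bases 2 to 8 from the 5′ end. The mature sequence of the transfected microRNA is shown here because it is the agent that separates the groups, followed by other human microRNAs that share its seed, from RefSeq (GRCh38.p14). Capitals mark the seed.
hsa-miR-424-5p: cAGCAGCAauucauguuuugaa
hsa-miR-15a-5p: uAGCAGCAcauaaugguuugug
hsa-miR-16-5p: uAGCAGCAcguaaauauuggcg
hsa-miR-497-5p: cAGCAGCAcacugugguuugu
The first of these lies on chromosome X from 134546680 to 134546701 on the minus strand (GRCh38.p14). In the RefSeq table, 7 of 2370 mature microRNAs had this seed. The other arm of the same hairpin has a different one.
hsa-miR-424-3p: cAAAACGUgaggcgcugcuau
Whether Frizzled messenger RNAs hold sites for either seed was not analysed here.

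Among 58717 spots of gene probes on each array, between 66.8% and 70.1% were well above background in each channel, and 0 spots were saturated. Across the 13812 measured genes the log2 ratio of pre-miR-424 over control had an SD of 0.24 with normal labelling and of 0.27 on the swap, and the error of a single array, taken as the SD of the difference between the arrays divided by the square root of 2, was 0.23. The ratios of the arrays correlated weakly across measured probes (Pearson r = 0.157), and probes are no replicates of the experiment. Of the basal prostate epithelial markers, 6 of 6 (KRT5, KRT14, KRT15, TP63, ITGA6 and ITGB4) passed the scanner's test against background in each dye on each array. The luminal markers KLK3 and TMPRSS2 did not pass it. The same test was passed by 5 of 7 stromal, 3 of 4 leukocyte and 1 of 3 endothelial markers, so detection alone did not separate cell types on this array.

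FZD5 (NM_003468), a receptor on chromosome 2 that can carry both beta-catenin signals and other Wnt signals, was the one Frizzled gene that rose by at least 2-fold on both arrays. Its probe was printed as 10 spots. On the array with normal labelling, the spot signals with pre-miR-424 (Cy5) ran from 877 to 1354 with a median of 951.5, over a median local background of 67.5. The control signals (Cy3) in the same spots ran from 264 to 410 with a median of 314, over a background of 29.5. All 10 spots were brighter with pre-miR-424, and the ranges of the groups did not overlap. On the dye swap, the signals with pre-miR-424 (Cy3) ran from 567.5 to 830 with a median of 631.5. The control signals (Cy5) there ran from 427 to 659.5 with a median of 521. The ranges overlapped, since Cy5 was the brighter dye on these arrays, but within each of the 10 spots the signal with pre-miR-424 was again the higher one.

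**Figure D1:**
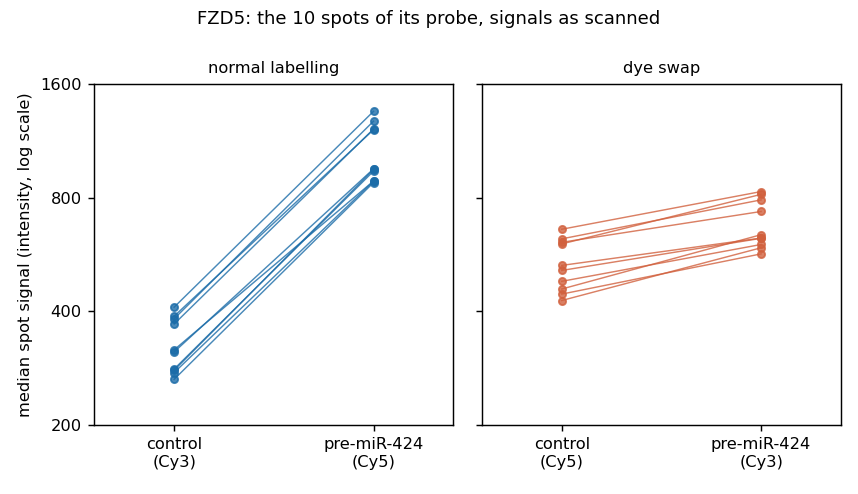
Median spot signal of the FZD5 probe (intensity, log scale) in the control channel and the pre-miR-424 channel of each array, with a line joining the channels of each of the 10 spots. Every line goes up towards pre-miR-424, from a median of 314 to 951.5 with normal labelling and from 521 to 631.5 on the dye swap, before any correction for the dyes.

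After background correction and loess normalization, which removes the general difference between the dyes, FZD5 had a log2 ratio of 1.09 with normal labelling (2.13-fold) and of 1.28 on the swap (2.44-fold). The mean was 1.19 with an SD between the arrays of 0.14 (n = 2 arrays, 1 replicate), or 2.28-fold. Among the spots, the log2 ratio ran from 0.89 to 1.16 on the normal array (median 1.12, SD 0.082) and from 1.17 to 1.42 on the swap (median 1.27, SD 0.081). A ratio of at least 1 was reached by 9 of 10 spots on the normal array and 10 of 10 on the swap. The spots share a probe sequence and a hybridisation, so this spread is that of the print and the scan. The share of all measured genes higher by at least 2-fold on both arrays was 0.0724% (10 of 13812), 0.029% were lower by as much and 0.101% passed in either direction. A further 0.116% (16 genes) passed 2-fold on both arrays in the direction of the dye and not of the RNA. As FZD5 was chosen for this rise, nothing is read from that share. By its mean ratio FZD5 stood at rank 8 among the 13812 genes.

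The size of this rise moved by more than the spread between the arrays in the scanner software's ratios, 1.26 and 1.47 (mean 1.36), which differ in background, offset and normalization together. With an offset of 16 in place of 50 as the one change, the mean was 1.27, and without background correction it was 1.20. No other Frizzled gene reached 2-fold on either array under any of the alternatives.

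The rest of the family lay below FZD5 by a wide gap. The mean log2 ratios of the other 9 genes ran from −0.08 for FZD6 to 0.39 for FZD4. FZD5 exceeded the next member by 0.80. The SD between the arrays, which are technical replicates, was 0.14 for FZD5 and 0.068 for FZD4. The array ratios of FZD5 overlapped with those of no other member. On the dye swap, FZD5 was the single member with a brighter signal for pre-miR-424 than for control before normalization. In the other 9 genes every spot was brighter in the Cy5 channel, whichever RNA it held. As FZD5 was chosen for its rise on both arrays, its gap over the other members and these signals are descriptions, and nothing is read from them.

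**Figure D2:**
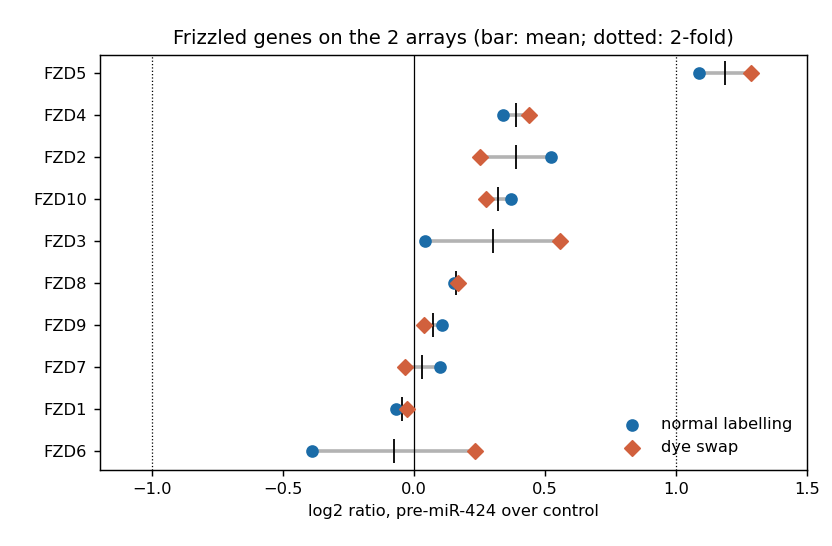
Log2 ratio of pre-miR-424 over control for each Frizzled gene on the array with normal labelling (circles) and on the dye swap (diamonds), with a bar at the mean and dotted lines at 2-fold. FZD5 stands alone at 1.09 and 1.28, FZD4, FZD2, FZD10 and FZD3 have means between 0.30 and 0.39, and FZD6 lies at −0.39 and 0.23 on the arrays.

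FZD8 (NM_031866), on chromosome 10, is the closest relative of FZD5 in the family and shares Wnt ligands with it. It had 1 spot. With normal labelling its signal was 242.5 with pre-miR-424 and 143.5 in control, and on the swap it was 140 and 228. The log2 ratios were 0.15 and 0.17 (mean 0.16, SD 0.012), the tightest pair of the family. FZD8 thus stayed far below FZD5 on both arrays. Its probe is dim, however, and the offset understates changes of dim probes. With an offset of 16 its mean was 0.20.

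As FZD5 and FZD8 are the nearest relatives, their promoters are shown, each from 250 bases before the start of the gene to 50 after it (RefSeq, GRCh38.p14, minus strand, written 5′ to 3′ along the gene). Capitals mark the GC box GGGCGG and the CCAAT box CCAAT, read on both strands; GC boxes may overlap each other.
FZD5, chr2:207769857-207770156: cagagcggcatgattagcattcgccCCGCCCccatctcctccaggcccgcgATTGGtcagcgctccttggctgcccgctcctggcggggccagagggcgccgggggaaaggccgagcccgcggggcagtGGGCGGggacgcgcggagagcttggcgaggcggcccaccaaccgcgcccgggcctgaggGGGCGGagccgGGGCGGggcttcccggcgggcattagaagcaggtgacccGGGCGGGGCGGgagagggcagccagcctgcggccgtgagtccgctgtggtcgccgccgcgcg
FZD8, chr10:35642247-35642546: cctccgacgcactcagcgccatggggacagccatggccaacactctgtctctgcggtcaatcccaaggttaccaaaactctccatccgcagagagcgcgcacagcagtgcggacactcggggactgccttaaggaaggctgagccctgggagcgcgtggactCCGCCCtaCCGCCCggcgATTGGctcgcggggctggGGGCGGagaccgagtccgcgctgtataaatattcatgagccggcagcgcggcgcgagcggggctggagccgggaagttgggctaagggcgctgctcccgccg
The FZD5 window held 6 GC boxes and 1 CCAAT box at a GC content of 77%, and the FZD8 window held 3 GC boxes, 1 CCAAT box and a TATA box (TATAAA) at 67%. The window of FZD4, whose mean log2 ratio was 0.39, also held 6 GC boxes and 1 CCAAT box, at 79.7%. Of 35116 promoter windows of this length, 45% held the GC box, 34.6% the CCAAT box and 11.5% the TATA box, and the median GC content was 58.7%. The core of the TCF and LEF motif, CTTTG, was found in neither the FZD5 nor the FZD8 window, against 47.5% of all windows. As both windows are richer in GC than the median window, that share is no like reference. Windows were at hand for 5 Frizzled genes. Those of FZD4 and FZD9 held 0 copies of CTTTG as well, and that of FZD1 held 2. These letters describe the windows, and no binding was measured.

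FZD4 (NM_012193), on chromosome 11, serves as the receptor of the eye and vessel ligand Norrin as well as of Wnts. Its 2 spots gave signals of 1016 and 1031 with pre-miR-424 against 531 and 550 in control on the normal array, and 602 and 670.5 against 868 and 937 on the swap. The log2 ratios were 0.34 and 0.44 (mean 0.39, SD 0.068, 1.31-fold). Both spots were above 0 on both arrays. FZD4 kept this level under all alternatives, from 0.33 to 0.45.

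FZD1, FZD2 and FZD7 form a subfamily of close relatives, and their ratios differed. FZD2 (NM_001466) gave signals of 3861.5 and 5004.5 with pre-miR-424 against 1883.5 and 2151 in control on the normal array. On the swap the signals were 2134 and 2451.5 against 3392 and 4250.5. Its log2 ratios were 0.52 and 0.25 (mean 0.39, SD 0.19), both above 0. With each array centred on its median in place of loess the swap gave −0.03, where the median of all measured genes was −0.23, so FZD2 still lay above that median. FZD7 (NM_003507) had ratios of 0.098 and −0.037, of unlike sign, and without background correction its swap turned to 0.0049. FZD1 (NM_003505), on chromosome 7, had −0.068 and −0.026, the one member below 0 on both arrays, and under median centring its normal array gave 0.02, where the median of all measured genes was 0.13. The means of FZD7 and FZD1, 0.03 and −0.05, lay within the error of a single array.

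FZD9 and FZD10 form another pair of relatives. FZD10 (NM_007197) is a dim probe whose 2 spots gave 226.5 and 305 with pre-miR-424 against 113.5 and 146.5 in control on the normal array, and 126 and 135 against 196 and 205.5 on the swap. Its log2 ratios were 0.37 and 0.27 (mean 0.32, SD 0.067). Its mean moved most among the members between the scalings, and the scanner software's ratios gave 0.73 and 0.54 (mean 0.64), above those of FZD4 (0.45) and of FZD3 (0.44). FZD9 (NM_003508), on chromosome 7 and also a dim probe, gave ratios of 0.11 and 0.038, with 1 of its 2 spots above 0 on the swap.

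FZD3 and FZD6, relatives that are known from planar cell polarity, in which cells align within a sheet, were the members on which the arrays disagreed most. The 2 spots of FZD3 (NM_017412), also a dim probe, averaged a log2 ratio of 0.043 with normal labelling but of 0.56 on the swap (mean 0.30, SD 0.36). FZD6 (NM_003506) was measured by 1 spot with signals of 4274.5 with pre-miR-424 and 3666 in control on the normal array, and 3466 and 5890 on the swap. Its ratios were −0.39 and 0.23 (mean −0.08, SD 0.44), so it was lower in Cy5 than the loess trend on both arrays. For both genes the SD between the arrays exceeded the mean, and no direction is given.

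Ordered by mean ratio, the family ran FZD5, FZD4, FZD2, FZD10, FZD3, FZD8, FZD9, FZD7, FZD1 and FZD6. Neighbours in this order overlapped in their array ratios, except FZD5 and FZD4 with a gap of 0.80 and FZD8 and FZD9 with a gap of 0.089. In all, 7 of 10 Frizzled genes were higher on both arrays and 1 was lower on both, while 2 had unlike signs. The 7 include FZD3, at 0.043 with normal labelling and given no direction above, and FZD9, at 0.038 on the swap. Of all measured genes, 26.8% were higher on both, 26.7% lower on both and 46.5% of unlike sign. Without FZD5, 6 of 9 were higher on both. Under median centring these counts were 6 of 10 and 5 of 9, against 14.6% of all genes. The median over the 10 members was 0.23 (0.13 with normal labelling and 0.24 on the swap) and over the 9 without FZD5 it was 0.16, beside −0.0042 over all measured genes. As the family was chosen with results of these data known, these counts describe it and support nothing further.

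**Figure D3:**
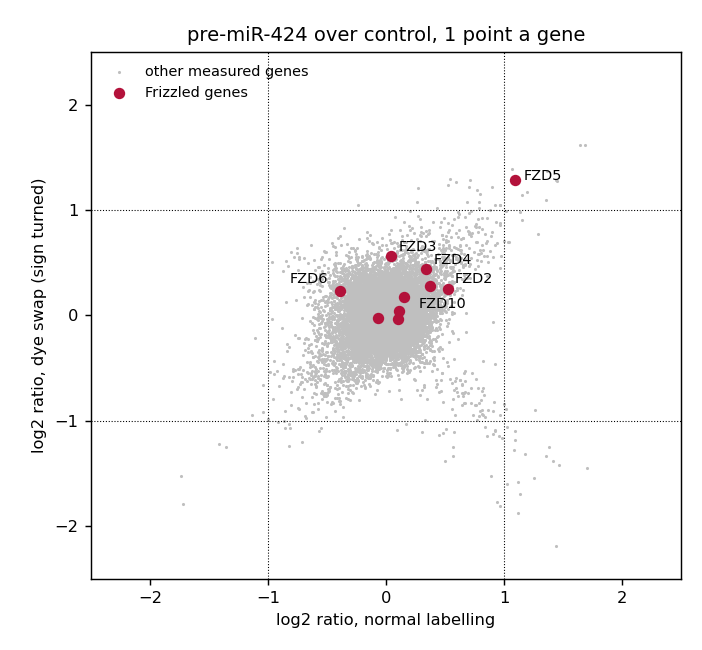
Log2 ratio of pre-miR-424 over control on the array with normal labelling (horizontal) and on the dye swap with the sign turned (vertical), 1 point for each of 13812 measured genes, with the Frizzled genes in red and dotted lines at 2-fold. FZD5 lies in the upper right corner beyond 2-fold on both arrays, while the other 9 members lie short of 2-fold on both. By mean ratio, 4.26% of measured genes lay above FZD10 and 5.08% above FZD3, and the means of FZD4 and FZD2 were higher still.

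In the plane of the 2 array ratios, the measured genes nearest to FZD5 were XAF1 (1.07 and 1.39), SWAP70 (1.19 and 1.17), EMC10 (1.15 and 1.14), OAS1 (0.90 and 1.22) and DTX3L (0.97 and 1.05), at distances from 0.11 to 0.26. The likeness rests on 1 pair of values a gene, from its brightest probe, although XAF1 and EMC10 had 2 measured probes each. As only 10 of 13812 genes were higher by 2-fold on both arrays, a gene chosen for its rise has few genes near it. XAF1, OAS1 and DTX3L are known as interferon-induced genes, SWAP70 works in actin and Rac signalling, and EMC10 is a subunit of a membrane protein insertion complex.

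The genes next to FZD5 on chromosome 2 did not share its ratio. CCNYL1, the nearest protein coding gene on one side, had log2 ratios of −0.54 and 0.34, METTL21A had −0.053 and 0.43, and CREB1 had 0.00072 and 0.40. On the other side PLEKHM3 had −0.13 and 0.041, and the crystallin genes CRYGD and CRYGC were not measured. All 4 measured neighbours lay below 0.5 on both arrays, against at least 1.09 for FZD5.

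The other parts of the Wnt pathway were described by 9 lists, from ligands to target genes, of which 79 of 115 genes were measured. None of the 79 passed 2-fold on both arrays (0 higher, 0 lower), where 0.101% of all measured genes did, so a count of 0 is no result about the pathway. Their median mean log2 ratio was 0.0037, beside −0.0042 over all measured genes, and 20 were higher and 23 lower on both arrays, beside 26.8% and 26.7% of all measured genes. These shares also stand behind the counts of each list below, most of which hold few genes. At 1.5-fold on both arrays, 1 gene was higher and 2 were lower, where 0.623% of all measured genes were higher and 0.391% lower at that level (1.01% in either direction). The mean ratios of these pathway genes ran from −0.96 to 0.69, below that of FZD5. As FZD5 was chosen for its rise, nothing is read from that difference.

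**Figure D4:**
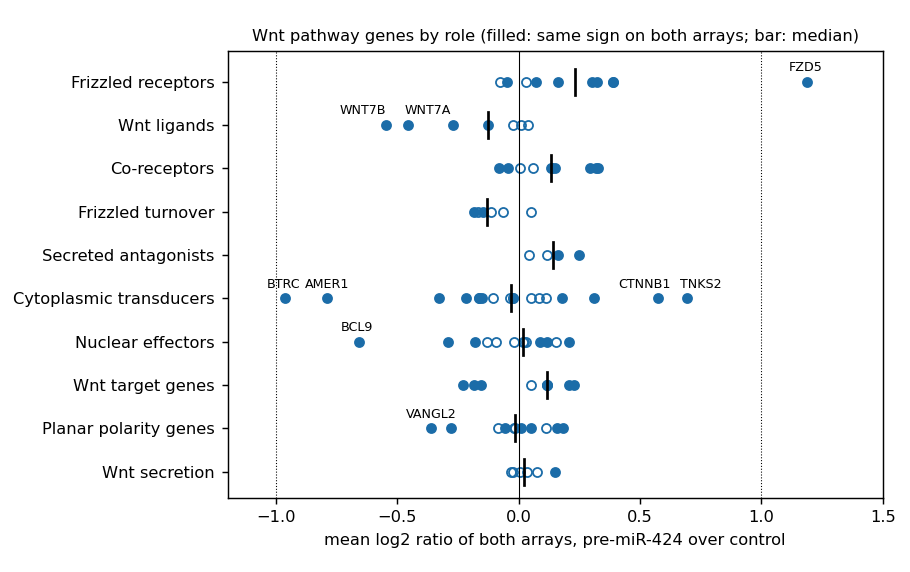
Mean log2 ratio of both arrays for each measured gene of the Frizzled family and of 9 lists of Wnt pathway genes, filled where both arrays had the same sign and open where they did not, with a bar at the median of each list and dotted lines at 2-fold. FZD5 at 1.19 is the one gene beyond 2-fold, and the widest spread is among the cytoplasmic transducers, from BTRC at −0.96 to TNKS2 at 0.69.

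Of the 20 ligands, 7 were measured, 12 were not well above background in every channel and WNT10A had outlier spots. Of the 7, 0 were higher on both arrays and 4 were lower on both, against 26.8% and 26.7% of all measured genes. WNT7B had log2 ratios of −0.50 and −0.59 by its brightest probe, but another measured probe gave 0.020 and 0.11. WNT7A, measured by 1 probe, had −0.37 and −0.54, and WNT10B had −0.28 and −0.27. WNT3A had −0.074 and −0.18 by its brightest probe and −0.35 and −0.84 by another. The list's median was −0.12 (−0.074 with normal labelling and −0.18 on the swap), and −0.037 with no filter on dim probes. With the scanner software's ratios 2 of the 7 were higher on both arrays and 4 were lower.

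In the list of co-receptors that work beside the Frizzled proteins, 10 of 11 genes were measured, with 5 higher and 2 lower on both arrays. The median was 0.13 (0.22 with the scanner software's ratios). The list also counts SMO, which is no Wnt co-receptor and had log2 ratios of −0.075 and −0.016, lower on both. PTK7, a co-receptor of polarity signals, had log2 ratios of 0.44 and 0.21. Under median centring its swap gave −0.07, where the median of all measured genes was −0.23. ROR1, a tyrosine kinase receptor of Wnt ligands, had 0.25 and 0.33, and its relative ROR2 had 0.17 and 0.10. LRP6, the partner of Frizzled in beta-catenin signals, had 0.14 and 0.12, and LRP5 had −0.031 and −0.13. ADGRA2, which works with RECK in Wnt7 signals, had 0.17 and 0.12. RECK itself had −0.037 and 0.67 by the brighter of its 2 measured probes.

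Frizzled receptors are removed from the membrane by the ubiquitin ligases RNF43 and ZNRF3, which R-spondins and their LGR receptors restrain. Of 10 genes of this system, 6 were measured, 0 were higher on both arrays and 2 were lower on both, against 26.8% and 26.7% of all measured genes. The median was −0.13, but −0.043 on the normal array alone, −0.15 on the swap alone and −0.042 with no filter on dim probes. RNF43 had log2 ratios of −0.15 and −0.22, LGR4 had −0.19 and −0.10, and ZNRF3, by the brighter of its 2 measured probes, had 0.13 and −0.030. Each of these lay within the error of a single array. Among secreted antagonists and their receptors, 4 of 14 were measured, and the median of 0.14 came from 0.031 with normal labelling and 0.26 on the swap. KREMEN2, a receptor of Dickkopf proteins, had 0.11 and 0.39, and DKK1 had −0.045 and 0.28. KREMEN1 had 0.20 and 0.12 by its brightest probe and 0.089 and 0.092 by another. Under median centring the swap of the brightest probe gave −0.12, where the median of all measured genes was −0.23. SFRP1, a secreted protein with a Frizzled-like domain, had outlier spots and was left out.

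All 18 cytoplasmic transducers were measured, with 4 higher and 7 lower on both arrays and a median of −0.03 (0.023 with normal labelling and −0.13 on the swap). Within the 9 Wnt pathway lists they held the largest mean ratios in size. BTRC, the F-box protein that marks beta-catenin for breakdown, had log2 ratios of −0.86 and −1.07 (mean −0.96, SD 0.15). AMER1, a scaffold of the destruction complex, had −0.91 and −0.68 (mean −0.79, SD 0.16). CTNNB1, which encodes beta-catenin itself, had 0.57 on both arrays, and TNKS2, a tankyrase that promotes the breakdown of axin, had 0.66 and 0.73. These 4 genes were named for large ratios of like sign, so agreement between their arrays is built into the choice. Their signs were the same under each of the 5 other scalings, with CTNNB1 at 0.72 and 0.30 under median centring. GSK3B, the kinase that marks beta-catenin, had −0.32 and −0.33. The Dishevelled genes DVL1, DVL2 and DVL3, which act directly under the Frizzled receptors, had means of −0.04, −0.16 and 0.08. For DVL1 this is the brighter of 2 measured probes.

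All 13 nuclear effectors were measured, with 3 higher and 3 lower on both arrays and a median of 0.02 (0.013 with normal labelling and −0.027 on the swap). BCL9, a co-activator that binds beta-catenin, had log2 ratios of −0.79 and −0.53 (mean −0.66, SD 0.18), and its relative BCL9L had −0.16 and −0.42 by its brightest probe and 0.062 and −0.23 by another. PYGO1, a further co-activator, had −0.24 and −0.12. TCF7, a factor that carries beta-catenin to DNA, had 0.16 and 0.25 by its brightest probe and −0.16 and 0.19 by another. Of 18 target genes that beta-catenin signals are known to raise, 9 were measured, 3 were higher and 3 lower on both arrays, and the median was 0.12. On single arrays that median was 0.064 with normal labelling and −0.030 on the swap, so it has no settled sign. AXIN2, NKD1, SP5 and LGR5 were among the targets not well above background in every channel. BMP4 had 0.14 and 0.32, ASCL2 had −0.13 and −0.33, and CCND1 had outlier spots. The target list shares TCF7, LEF1, DKK1, RNF43, ZNRF3, LGR5 and NOTUM with the lists above.

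Of the 12 planar polarity genes, 11 were measured, with 4 higher and 3 lower on both arrays and a median of −0.02 (0.0027 with normal labelling and 0.0014 on the swap). VANGL2, a membrane protein of the polarity complex, had log2 ratios of −0.37 and −0.35, and its relative VANGL1 had 0.13 and 0.24. Under median centring the swap of VANGL1 gave −0.09, where the median of all measured genes was −0.23. INVS had −0.35 and −0.21, and DAAM1, a formin under Dishevelled, had 0.053 and 0.26. Under median centring the swap of DAAM1 gave −0.04, also above that median. All 6 genes of Wnt secretion were measured, 1 was higher on both arrays, and the median was 0.02 (−0.086 with normal labelling and 0.14 on the swap). That gene, TMED5, had 0.055 and 0.25 by its brightest probe and 0.11 and 0.097 by another. Under median centring the swap of the brightest probe gave −0.06, above the median of −0.23 over all measured genes. WLS, the carrier of Wnt ligands to the membrane, had −0.075 and 0.15 by the brighter of its 2 measured probes.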

How the data were processed

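The deposited scanner files (Agilent Feature Extraction 10.7.3.1, design on hg19) give median spot and background signals as intensity on a linear scale, not normalized, with a log10 ratio of the dyes, Cy5 over Cy3. Deposited beside them were the authors' log2 ratios of unstated scale and direction, for which the submitters' notes name limma. Set against the values computed here over measured probes, they ran as Cy5 over Cy3 on both arrays (Pearson correlations 0.999997 and 0.999992, column medians 0.024 and 0.036); how they were centred is unknown. Median signals were corrected by normexp with an offset of 50 on all spots (limma 3.58.1, R 4.3.3), control spots were dropped, and loess was applied within each array. The offset understates changes of dim probes. Spots of a probe were averaged and ratios turned to pre-miR-424 over control. A probe was measured when most of its spots passed the scanner's background test in each dye of each array and none was an outlier: 25664 of 42405. The brightest measured probe stood for a gene. Of 27134 probes with RefSeq accessions, 25771 matched a symbol (RefSeq, GRCh38.p14, names and gene order only).

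A gene was called when both arrays gave at least 2-fold in the same direction. Named were all Frizzled genes, up to 4 genes a list with the largest ratios of like sign (others were chosen after their values were seen), the 5 genes nearest to FZD5 and the 3 coding genes on each side of it. Members and lists were chosen with earlier results of these data known. The procedure was tested on simulated data, in which probes well above background with small scanner ratios were changed by known folds. Other probes were not part of that test. Also tried were a normexp offset of 16, signals without background correction, centring on the median, scanner ratios, the authors' ratios, 2 weaker filters, outlier spots kept, means over probes, each array alone and a 1.5-fold threshold. Python 3.11.15, numpy 2.4.6 and pandas 2.3.3 were used. The number of arrays limits the precision. The probe sequences were not used, so cross-hybridisation between family members was not tested.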

Additional observations from a re-analysis of the deposited data

How the results depend on the processing

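FZD5 was called under all 12 alternatives, and no other Frizzled gene was. Several of these could not have changed the call of FZD5. The weaker filters, outlier spots kept and means over probes leave its probe as it was. Each array alone and the 1.5-fold threshold ask for less than the main rule, and the authors' ratios nearly repeat the main values. The mean log2 ratio of FZD5, 1.19, stayed within the spread between the arrays except with the scanner software's ratios (1.36), where the cause was not tested. With each array alone it ran from 1.09 to 1.28. The 14 genes called in all became 24 with the scanner software's ratios, 140 at 1.5-fold, and 43 to 76 with each array alone, where no repeat is asked for. The median of the Wnt pathway lists (0.0037) was −0.0053 without background correction, −0.024 with median centring, −0.0058 with outlier spots kept and −0.00046 with means over probes, and ran from −0.027 to 0.0027 with each array alone; the cause was not tested there either. Median centring moved the median of all measured genes to 0.13 with normal labelling and −0.23 on the swap, so its ratios are read relative to that shift. No paired analysis was possible because the ratios are already taken within an array and the arrays are 1 replicate. Dim probes are limited by signal over background.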
